A study of Mus musculus with 27 samples.

Results

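The genes described here are the cytochrome P450 genes of the Cyp2c, Cyp2d, Cyp2j and Cyp3a subfamilies, taken as every gene whose symbol is one of these prefixes followed by a number. There were 37 of them among the 36333 genes measured, 15 of the Cyp2c, 8 of the Cyp2d, 7 of the Cyp2j and 7 of the Cyp3a subfamily. Each subfamily lies on a single chromosome, Cyp2c on 19, Cyp2d on 15, Cyp2j on 4 and Cyp3a on 5. Within Cyp2c, Cyp2c44 lies apart from the other 14 genes, and within Cyp3a, Cyp3a13 lies apart from its relatives there (137892933 to 137925610 in GRCm38.p6, against 145345149 to 146114978 for the other members). RNA was measured in 3 tissues of male MlxKO mice, namely liver, omental (abdominal) fat and skeletal muscle, and at ages of 5 months and 20 months.

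All 27 samples came from MlxKO mice, so every group shared the targeted gene and the treatment used to delete it. These mice carry a floxed Mlx gene and a tamoxifen-activated Cre recombinase (Gt(ROSA)26Sortm1(cre/ERT2)Tyj) driven by the ubiquitous ROSA26 promoter. Deletion was induced after weaning, at a body weight of at least 15 g, by 5 daily intraperitoneal injections of tamoxifen at 75 mg/kg. There were 4 libraries of each tissue from the younger and 5 from the older age. The same 4 mice gave all 3 tissues at 5 months (livers X5L4299, X5L5001, X5L5238 and X5L5239, with F for adipose tissue and S for muscle in place of the L). The libraries at 20 months (X18 in their names) shared no number between tissues or with the younger mice. Whether tissues at 20 months came from the same animals cannot be told from the names. Values per library are given in the order of these names. WT samples were not used here, so the values describe aging within MlxKO mice and not the effect of the deletion. The deletion was not equally complete between tissues. By the paper's qRT-PCR on the same 4 mice at 5 months, residual Mlx RNA relative to WT was lowest in liver and highest in skeletal muscle. The paper lists the same order of these 3 tissues for older mice. The part of this in differences between tissues or ages was not tested.

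Values are reads per gene, scaled to each library, and are called scaled values below. The libraries held 14384695 to 25673919 reads on genes, and 3 reads corresponded to a scaled value of 0.0703 to 0.242. Mlx, the deleted gene, had 7.04 to 32.4 over all libraries, a sum over all its exons that does not measure the deletion. Markers of muscle fibres summed to 147523 to 186291 in skeletal muscle. Adipocyte markers summed to 12962 to 25817 in adipose tissue. The hepatocyte markers summed to 142045 to 198254 in liver at 5 months and 64007.5 to 124694 at 20 months. Liver X18L74 stood apart with the sum of 64007.5, against 112179 to 124694 in the other 4 libraries of its age. In such bulk samples, fewer cells of a type and less RNA per cell cannot be told apart.

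Cytochromes P450 are heme enzymes of the endoplasmic reticulum that insert oxygen into their substrates with electrons passed on by P450 oxidoreductase (Por). Enzymes of the Cyp2c, Cyp2d and Cyp3a subfamilies clear drugs, steroids and other foreign and endogenous compounds, above all in hepatocytes. Several Cyp2c and Cyp2j enzymes are also epoxygenases, which turn arachidonic acid into epoxyeicosatrienoic acids that the soluble epoxide hydrolase Ephx2 removes. Mice have many more of these genes than humans, as rows of near copies, and a read from a stretch shared by such copies cannot be assigned to a single gene with certainty.

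RefSeq promoter sequences (GRCm38.p6) were matched for 32 of the 37 genes. The entries not matched were Cyp2c44, Cyp2c54, Cyp2d12, Cyp2d22 and Cyp2d34. The 3 shown belong to Cyp2c67, whose age change in liver was called under every setting tried, and to the neighbours Cyp2c37 and Cyp2c50, whose values ranked the livers at 5 months in the same order. They end just before the outermost annotated start of the gene and are written 5′ to 3′ on the gene's own strand, and capitals mark matches to the motifs named after them. The Cyp2c67 stretch is chr19:39649080-39649292 on the minus strand, the Cyp2c37 stretch chr19:39992174-39992423 on the plus strand and the Cyp2c50 stretch chr19:40089429-40089678 on the plus strand.
Cyp2c67: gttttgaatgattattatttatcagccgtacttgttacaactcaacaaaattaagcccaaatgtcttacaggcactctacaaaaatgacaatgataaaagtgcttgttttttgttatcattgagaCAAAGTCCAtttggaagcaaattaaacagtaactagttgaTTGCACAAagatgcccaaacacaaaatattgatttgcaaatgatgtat
Cyp2c37: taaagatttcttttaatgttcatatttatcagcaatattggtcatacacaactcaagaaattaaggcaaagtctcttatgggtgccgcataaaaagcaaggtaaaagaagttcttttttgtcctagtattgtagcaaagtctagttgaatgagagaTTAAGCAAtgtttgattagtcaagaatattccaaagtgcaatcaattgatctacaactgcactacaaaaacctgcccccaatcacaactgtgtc
Cyp2c50: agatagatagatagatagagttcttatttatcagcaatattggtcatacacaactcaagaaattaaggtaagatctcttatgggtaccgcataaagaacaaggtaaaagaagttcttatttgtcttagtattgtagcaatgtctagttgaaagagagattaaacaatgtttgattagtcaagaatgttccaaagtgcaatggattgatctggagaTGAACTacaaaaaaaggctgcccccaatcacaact

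Aligned end to end, the stretches of Cyp2c37 and Cyp2c50 were identical at 84.3% of 255 aligned positions. That of Cyp2c67 was identical at 59.4% of 261 positions to Cyp2c37 and at 58.7% of 259 positions to Cyp2c50. Motifs were searched on both strands in the 250 bases before each start, and matches of different motifs could overlap. CAAAGTCCA, a sequence bound by the hepatocyte factor Hnf4a and marked first in the Cyp2c67 stretch, was found in 8 of the 32 member promoters and in 0.381% of all 27025 promoters of this length, and the member promoters are related by duplication. TTGCNNAA, a C/EBP-type sequence, lies at bases 166 to 173 of Cyp2c67 and 157 to 164 of Cyp2c37, and occurred in 6 of 32 member promoters and 9.55% of all. AGTTCA, a hexamer bound by xenobiotic receptors, lies on the opposite strand at bases 216 to 221 of Cyp2c50, and occurred in 5 of 32 and 11.9%. The stretch of Cyp2c67 shown has 213 of the 250 bases searched. TATAAA was found in 16 of 32 and 12.97%, Cyp2c67 included, where it is not within the bases shown. AGGTCA was found in 9 of 32 and 13.8%, and TTCNNNGAA in 2 of 32 and 7.18%. CACGTG, the E box that the Mlx and Myc networks bind, occurred in 6.05% of all promoters and in 1 of the 32, that of Cyp2j6. A match describes these letters and does not show that a factor binds there.

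Together the 37 genes were liver genes. They took 0.635% to 0.889% of all reads in liver at 5 months and 0.876% to 1.19% at 20 months. Their summed scaled values in liver overlapped, at 8856.71 to 12227.5 at 5 months and 9555.66 to 14578.1 at 20 months. The means of these sums were 11185 and 12307.2. A difference between the ages was not tested for either measure. In adipose tissue the share of reads was 0.0102% to 0.0258% over both ages, and in skeletal muscle it was 0.00227% to 0.00608%. A gene was tested where its scaled value reached 1 in at least 4 libraries. By that filter 23 of the 37 genes were tested in liver (11 Cyp2c, 5 Cyp2d, 3 Cyp2j and 4 Cyp3a), 5 in adipose tissue and 3 in skeletal muscle. Of the other 14 genes in liver, 4 had 0 reads in all 9 libraries (Cyp2c66, Cyp2d34, Cyp2j12 and Cyp2j13), 8 more stayed under a scaled value of 1 in every liver, and Cyp2c40 and Cyp2d12 reached 1 in 3 livers each.

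**Figure D1:**
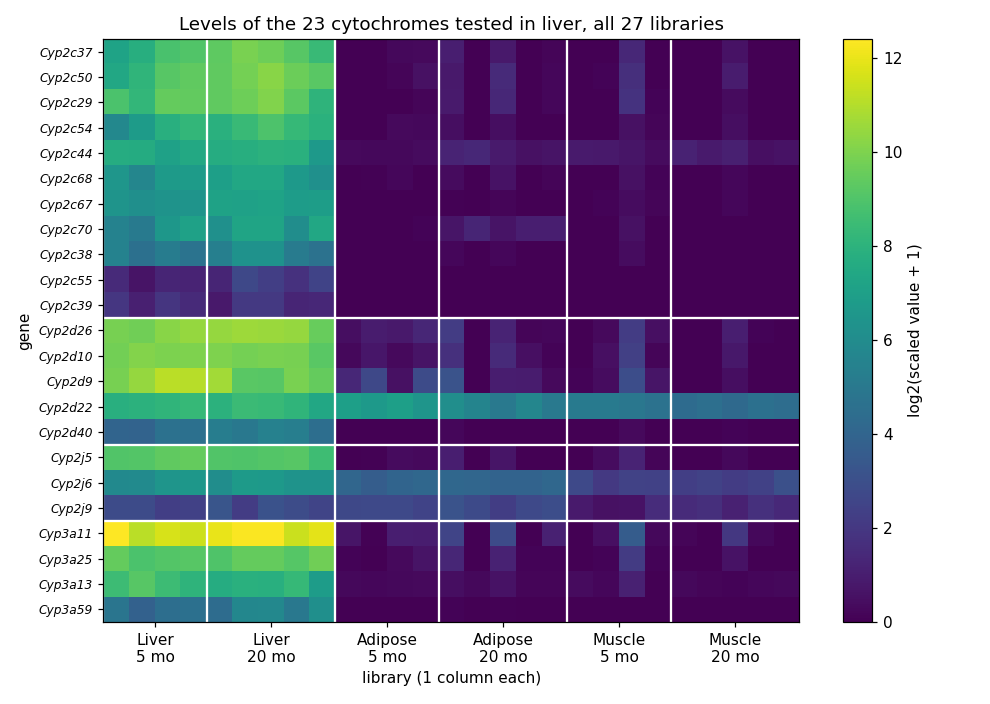
Each column is a library and each row a gene of the 23 tested in liver, ordered by subfamily and by liver level per kilobase; colour gives log2(scaled value + 1). Cyp2d22 and Cyp2j6 are visible in every library of every tissue, and muscle library X5S5238 shows faint values for many genes that are otherwise dark in muscle.

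By scaled value per kilobase of exon over the 9 livers, Cyp3a11, the main liver enzyme of the mouse Cyp3a subfamily, was the most abundant at 757 per kb. It was followed by Cyp2d26 (675), Cyp2d10 (569), Cyp2d9 (474), Cyp3a25 (303), Cyp2c37 (287), Cyp2j5 (238), Cyp2c50 (225), Cyp2c29 (203) and Cyp2c54 (144). The means of each age ordered some of them otherwise. Cyp2d9, with 638 per kb at 5 months, lay above Cyp2d10 and Cyp2d26 (both 609), and with 343 at 20 months it lay below Cyp2c37 (368). Neighbours in the order over both ages overlapped between libraries except Cyp2c38 (15.0) and Cyp2j9 (1.73). At the low end were Cyp2j9, Cyp2c55 (1.28) and Cyp2c39 (1.14 per kb), more than 2 orders of magnitude below Cyp3a11.

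**Figure D2:**
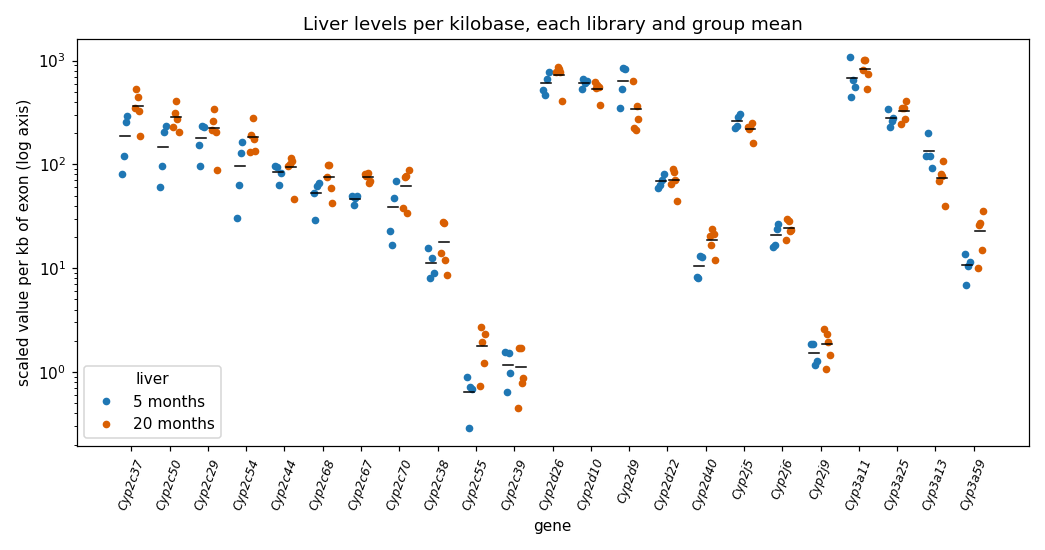
Points are the 9 livers (scaled value per kb of exon, log axis) and bars the group means, with 5 months in blue and 20 months in orange. Cyp2c67 is the gene of the 23 whose ages do not overlap, and the 4 livers at 5 months spread widely for Cyp2c37, Cyp2c50 and Cyp2c54.

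In liver, 3 of the 23 genes were higher at 20 than at 5 months and 0 were lower (limma adjusted p under 0.05): Cyp2c67, Cyp2c55 and Cyp2d40. The other 20 did not pass. Over all genes tested in liver, 19.8% were called (1269 higher and 1239 lower of 12654), a larger share than the 3 of 23. The ages did not overlap for 1 of the 23 genes, against 19.1% of all genes tested. Before adjustment, 9 of the 23 had a limma p under 0.05, against 37.1% of all genes. The median log2 change was 0.29 over the 23 genes and 0.00106 over all genes tested in liver, and 18 of the 23 changes were positive. The filter admitted genes by their level in liver as a whole, and the same 4 and 5 mice stand behind all of these changes.

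Markers of hepatocytes and of other cells were compared between the ages in the same livers. Of 11 hepatocyte markers 2 were lower and 0 higher at 20 months, and of 8 periportal hepatocyte markers 7 were lower, with a sum of 19572 to 32879 at 5 months and 6250 to 11438 at 20 months. Of 8 pericentral markers 0 were called by limma, and the sums overlapped (10815 to 21571 and 9018 to 17118). The 4 B and T cell markers tested were all higher, with sums of 2.04 to 6.72 and 7.17 to 15.1. Of 5 stellate cell and fibroblast markers 3 were higher and 0 lower, with overlapping sums of 210.2 to 340.2 and 302 to 458. Of 5 cholangiocyte markers 1 was higher and 1 lower, with sums of 57.8 to 70.6 and 79.7 to 123.6, and of the 5 adipocyte markers tested in liver 1 was higher and 1 lower, with sums of 592 to 745 and 987 to 1666. Of 7 macrophage markers 0 were called, of 5 endothelial markers 1 was lower, and of 6 mesothelial markers 1 was higher. The sums of each of these lists overlapped between the ages. The part of all these shifts in the changes of the cytochromes was not tested.

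**Figure D3:**
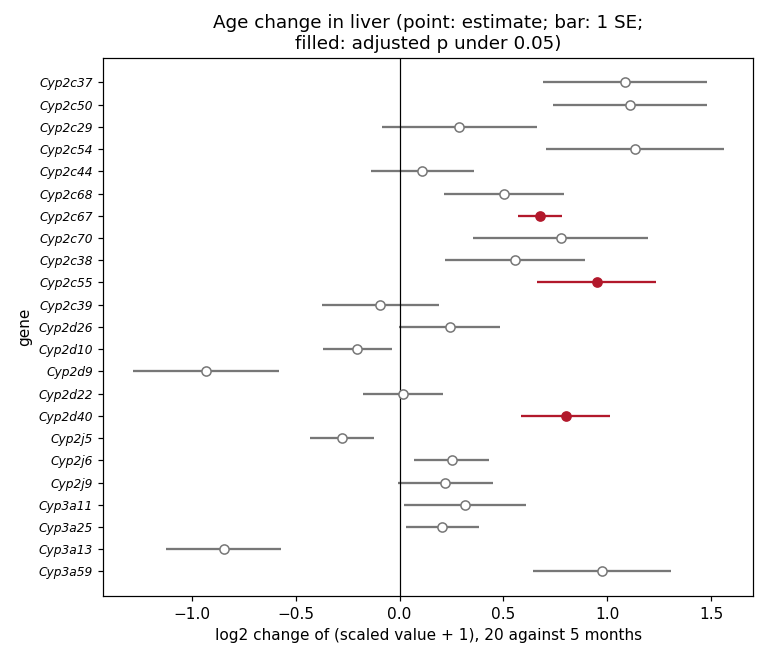
Points are log2 changes of (scaled value + 1) between 20 and 5 months in liver for the 23 genes, bars are 1 standard error, and filled points passed an adjusted p of 0.05. Cyp2c67 has the narrowest bar, while Cyp2c37, Cyp2c50 and Cyp2c54 lie further from 0 with bars several times as wide.

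Among the Cyp2c genes, Cyp2c67 (chr19:39608844-39649079, minus strand) had scaled values of 85.9, 70.9, 83.1 and 84.9 in the livers at 5 months and 140.3, 134.7, 144.4, 114.0 and 119.2 at 20 months. Every liver at 20 months lay above every liver at 5 months. The means at 5 and 20 months were 81.2 ± 6.94 (SD, n = 4) and 131 ± 13.3 (SD, n = 5). On the log2 scale the rise was 0.68 with a standard error of 0.106 (adjusted p = 0.00775 by limma). The exact two-sided permutation test gave p = 0.00794, which is the lowest value these group sizes can give. The spread within an age was small for this gene, with a coefficient of variation of 8.55% at 5 and 10.2% at 20 months, against 54.9% for Cyp2c37 at 5 months. Of its 50-base exon words, 52.8% also occur in other genes, most of them in Cyp2c40, which itself stayed at 0.284 to 1.33 in all livers.

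Cyp2c55 (chr19:39006940-39042690), the first gene of the cluster, is known for its expression in the gut and makes hydroxylated fatty acids. It had 1.78, 0.582, 1.43 and 1.36 at 5 months and 1.48, 5.36, 3.92, 2.44 and 4.66 at 20 months, from 8 to 107 reads. The ages overlapped in 1 liver at each age. On the log2 scale it changed by 0.95 with a standard error of 0.286 (adjusted p = 0.0404 by limma; exact two-sided permutation p = 0.0317). The call was lost in 8 of the 9 fits that left out 1 liver.

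Over both ages, the 2 most abundant Cyp2c genes were Cyp2c37 and Cyp2c50 (at 5 months Cyp2c29, at 178 per kb, lay above Cyp2c50 at 148). The enzymes of both act on arachidonic acid. The same pattern was seen in Cyp2c54, which lies between Cyp2c37 and Cyp2c50 (chr19:39992424-40113955 for all 3 genes). Cyp2c37 had 146, 217, 467 and 529.9 at 5 months and 637, 970.4, 817, 593 and 339.9 at 20 months. Cyp2c50 had 175, 282, 593 and 678 at 5 months and 663, 915, 1201, 803 and 598 at 20 months. The 4 livers at 5 months ranked X5L4299, X5L5001, X5L5238 and X5L5239 from low to high for Cyp2c37, Cyp2c54 and Cyp2c50 alike, with the highest 3.63, 5.46 and 3.87 times the lowest. At 20 months the order differed between the 3 genes and the ratio was 2.86, 2.11 and 2.01.

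The log2 changes were 1.09 for Cyp2c37 (standard error 0.396, limma adjusted p = 0.0732), 1.11 for Cyp2c50 (0.369, limma adjusted p = 0.0557) and 1.13 for Cyp2c54 (0.428, limma adjusted p = 0.0816). None of the 3 passed with limma, although their estimates exceeded that of Cyp2c67. On recovered reads DESeq2 called Cyp2c37 and Cyp2c50 as higher (DESeq2 adjusted p = 0.0334 and 0.0282) and Cyp2c54 missed (0.0657), while edgeR called none of the 3 (edgeR adjusted p = 0.0984, 0.0899 and 0.142). The exact two-sided permutation tests gave p = 0.0714, 0.0317 and 0.0397. Every liver at 20 months lay above the 5-month mean for Cyp2c50 and Cyp2c54, and 4 of 5 did for Cyp2c37. Between 18.3% and 30.1% of the 50-base words of these genes occur in other genes, mostly in each other. The 3 are therefore not fully separate measurements, although most words of each are its own. The part of shared sequence in their common order at 5 months was not tested.

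The other Cyp2c genes overlapped between the ages. Cyp2c29, an epoxygenase also induced by phenobarbital-type drugs, went from a mean of 544 to 684 (log2 change 0.29, limma adjusted p = 0.602), with X18L74 lowest at 273. Cyp2c70, the enzyme that makes the muricholic acids of mouse bile, had 44.7, 33.5, 94.6 and 138 at 5 months and 74.6, 149, 153, 66.7 and 176 at 20 months (log2 change 0.78, limma adjusted p = 0.201). Cyp2c38 changed by 0.55, Cyp2c68 by 0.50, Cyp2c44 by 0.11 and Cyp2c39 by -0.09 on the log2 scale (limma adjusted p = 0.251, 0.223, 0.778 and 0.837). Cyp2c44 was lowest in X18L74, at 100.3 against 208 to 251 in the other livers of that age.

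Among the Cyp2d genes, Cyp2d40 (chr15:82759833-82764122) was the called one. It had 14.8, 14.6, 23.9 and 23.1 at 5 months and 36.99, 30.5, 42.7, 38.3 and 21.5 at 20 months. Liver X18L74 was the one liver at 20 months that fell within the range of the younger livers. The means at 5 and 20 months were 19.1 ± 5.09 (SD, n = 4) and 34.0 ± 8.27 (SD, n = 5), which differed by 0.80 on the log2 scale with a standard error of 0.216 (adjusted p = 0.0288 by limma; exact two-sided permutation p = 0.0317). The call was lost in 5 of the 9 fits that left out 1 liver, with adjusted p up to 0.0853 from limma, and was kept without X18L74 (0.95, limma adjusted p = 0.0118).

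The abundant Cyp2d genes did not pass. Cyp2d26 had 938, 831, 1195 and 1399 at 5 months and 1379.8, 1539, 1493, 1386 and 730.1 at 20 months (log2 change 0.24, limma adjusted p = 0.495). Liver X18L74 was again far below the other livers of its age. Cyp2d10 had 877, 1099, 996 and 1045 at 5 months and 1028, 900.2, 960.3, 919.8 and 608 at 20 months (log2 change -0.20, limma adjusted p = 0.401).

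Cyp2d9, a testosterone hydroxylase known for male-biased expression in mouse liver, had 923, 1415, 2256 and 2189 at 5 months. At 20 months it had 1682, 595, 574, 979 and 724, so that X18L16 and X18L19 lay within the younger range and the other 3 livers below it. On the log2 scale it changed by -0.93 with a standard error of 0.351 (adjusted p = 0.0816 by limma; exact two-sided permutation p = 0.0714), and 0 of 5 older livers lay above the 5-month mean. Without X18L16 the change was called, and it was called by DESeq2 (adjusted p = 0.0367) but not by edgeR (adjusted p = 0.0899). Cyp2d22 did not pass in liver, with 229 to 313 at 5 and 173 to 349 at 20 months (log2 change 0.02, limma adjusted p = 0.961). Cyp2d12, which was not tested, had 0.255 to 0.998 at 5 months, and 0.509, 1.65, 8.91, 0.795 and 52.2 at 20 months, the last in X18L74.

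The Cyp2j genes overlapped between the ages in liver. Cyp2j5, an epoxygenase of liver and kidney, had 529, 553, 668 and 715 at 5 months and 532, 512, 539, 589 and 378 at 20 months (log2 change -0.28, limma adjusted p = 0.213). Cyp2j6, which is expressed in many tissues, had 57.7, 60.9, 86.8 and 95.2 at 5 months and 67.7, 108, 102, 82.6 and 83.3 at 20 months (log2 change 0.25, limma adjusted p = 0.333). Cyp2j9 was low, with means of 5.13 and 6.28 (log2 change 0.22, limma adjusted p = 0.513).

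Among the Cyp3a genes, Cyp3a11 had 5460, 2266, 3292 and 2814 at 5 months and 4103, 5131, 5135, 2723 and 3792 at 20 months. The highest value of all 9 belonged to X5L4299, the one with the lowest Cyp2c37, Cyp2c50 and Cyp2c54 of its age. On the log2 scale it changed by 0.31 with a standard error of 0.292 (adjusted p = 0.458 by limma). Cyp3a25 had 718, 474, 542 and 587 at 5 months and 510.2, 719, 720.3, 566 and 848 at 20 months (log2 change 0.21, limma adjusted p = 0.418).

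Cyp3a13 and Cyp3a59 moved in opposite directions without passing the threshold. Cyp3a13, which is known from the intestine as well as the liver, had 358, 586, 358 and 273 at 5 months and 206, 236, 228, 317 and 117 at 20 months (log2 change -0.85, limma adjusted p = 0.0522). Cyp3a59 had 27.2, 13.7, 21.2 and 23.03 at 5 months and 19.9, 52.5, 54.5, 30.2 and 71.4 at 20 months (log2 change 0.97, limma adjusted p = 0.0598). Of the 50-base words of Cyp3a59, 26.8% also occur in Cyp3a25. On the recovered reads, the quasi-likelihood test of edgeR and the Wald test of DESeq2 called both genes, Cyp3a13 as lower (adjusted p = 0.0490 and 0.0140) and Cyp3a59 as higher (adjusted p = 0.0441 and 0.00688).

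A list of 5 members known to be higher in female than in male liver was drawn up by hand and need not be complete. Of these 5, Cyp2c39 was the one tested. Cyp3a16 had 0 reads in the 4 livers at 5 months and 0, 4, 5, 5 and 3 reads at 20 months, near or under what 3 reads can show. Cyp3a44 had 0 in all livers at 5 months and at most 0.114 at 20 months, Cyp2c40 had 0.570 to 1.08 and 0.284 to 1.33, and Cyp2c69 0 to 0.720 and 0.560 to 0.751. Cyp3a41a, a near copy outside the naming rule, had 3 reads in 1 liver at 5 months and 0, 48, 19, 27 and 22 reads in the 5 livers at 20 months.

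In adipose tissue, 1 of the 5 genes tested was called, as lower at 20 months (19.1% of all genes tested there were called). It was Cyp2d22 (chr15:82370527-82380260, minus strand), often regarded as the mouse gene closest to the human drug-metabolising CYP2D enzyme. It had 127.0, 103, 127.7 and 87.8 at 5 months and 69.0, 47.3, 31.0, 51.6 and 31.9 at 20 months. The ages did not overlap, as for 17.4% of all genes tested in adipose tissue. The means at 5 and 20 months were 111 ± 19.5 (SD, n = 4) and 46.2 ± 15.7 (SD, n = 5), which differed by -1.30 on the log2 scale with a standard error of 0.237 (adjusted p = 0.0138 by limma; exact two-sided permutation p = 0.0159). It was called in 9 of 9 fits that left out 1 library and under 9 of 9 other settings.

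Marker values in the same adipose libraries are given for comparison. The 10 adipocyte markers had 2 lower and 0 higher, with sums that overlapped (12962 to 25817 and 13706 to 21317). Of 6 mesothelial markers 2 were lower (sums of 93.3 to 168 and 34.8 to 93.7), of 5 endothelial markers 2 were lower (555 to 1257 and 342 to 659.6), and of 6 B and T cell markers 4 were higher (5.54 to 18.03 and 11.4 to 139). Their part in the fall of Cyp2d22 was not tested.

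In skeletal muscle, 1 of the 3 genes tested was called, also as lower (19.3% of all genes tested there were called), and it was again Cyp2d22. It had 32.8, 32.7, 29.1 and 24.2 at 5 months and 19.2, 21.8, 17.9, 23.005 and 20.45 at 20 months, from 247 to 427 reads. The ages did not overlap, as for 17.3% of all genes tested in muscle. The means at 5 and 20 months were 29.7 ± 4.04 (SD, n = 4) and 20.46 ± 2.04 (SD, n = 5), which differed by -0.51 on the log2 scale with a standard error of 0.118 (adjusted p = 0.0144 by limma; exact two-sided permutation p = 0.00794, the smallest possible). The call held in 9 of 9 fits that left out 1 library and was lost when all 27 libraries shared 1 estimate of the spread (limma adjusted p = 0.0878).

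In the muscle libraries the 10 fibre markers had 1 higher and 0 lower, with overlapping sums (160367 to 186291 and 147523 to 177160). Of 5 macrophage markers tested 4 were lower (71.9 to 145 and 29.4 to 59.5), and the 4 fibroblast and stellate markers tested were all lower (856 to 1211 and 453 to 788). Their part in the muscle result was not tested.

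**Figure D4:**
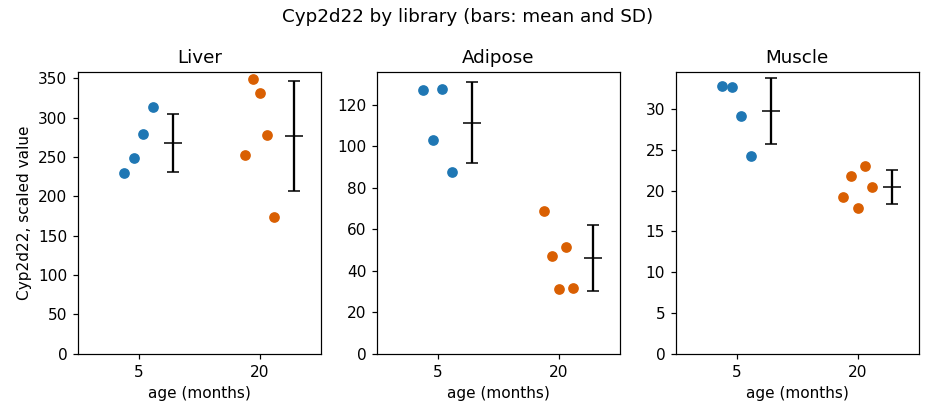
Points are single libraries (scaled value, axes from 0, a separate scale per tissue) and bars the mean and SD at 5 and 20 months. The ages overlap in liver (173 to 349 over both) and do not in adipose tissue or skeletal muscle, where every library at 20 months is below every library at 5 months.

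The age change of Cyp2d22 was then compared between tissues in a single fit over all 27 libraries. It differed by 1.32 on the log2 scale between liver and adipose tissue (standard error 0.281, limma adjusted p = 0.00305), in a test that called 15.6% of all genes. The test did not separate liver from skeletal muscle (0.53, standard error 0.281, limma adjusted p = 0.198) or adipose tissue from skeletal muscle (-0.79, standard error 0.281, limma adjusted p = 0.0603). The latter was called without the 20 most abundant genes in the scaling (limma adjusted p = 0.0284) and without X18F36, X5F5239 or X18L74 (limma adjusted p = 0.0123, 0.0400 and 0.0349). With the mouse as a block, these 3 adjusted p from limma were 0.00221, 0.180 and 0.0513. In liver against adipose tissue 4 of 23 genes were called, in liver against muscle 4 (17.5% of all genes called), and in adipose tissue against muscle 0 (14.7% called), with 2 of 23 at an unadjusted limma p under 0.05 there (30.2% of all genes). Cyp2d22 was the only gene called here that had been tested in both tissues on its own, and the other called genes were near or below the limit of detection outside liver.

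The other genes tested outside liver overlapped between ages. Cyp2j6 had 15.9, 11.5, 15.3 and 16.8 in adipose tissue at 5 months and 16.5, 16.3, 14.2, 14.5 and 16.8 at 20 months (log2 change 0.08, limma adjusted p = 0.641). In muscle it had 5.76, 3.14, 4.46 and 4.32 and then 3.91, 4.39, 3.62, 4.34 and 7.27 (log2 change 0.06, limma adjusted p = 0.841). Cyp2j9 had 4.69 to 5.74 and 3.75 to 8.08 in adipose tissue (log2 change 0.12, limma adjusted p = 0.634). In muscle Cyp2j9 had 0.845, 0.484, 0.548 and 2.02 at 5 months and 1.89, 2.19, 1.23, 2.35 and 1.71 at 20 months. Its log2 change there was 0.59 (standard error 0.224, limma adjusted p = 0.0824), and it was called when X5S5239, the one high library at 5 months, was left out.

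The order of tissues at 5 months differed between the broadly expressed genes. Cyp2d22 averaged 268 (liver), 111 (adipose tissue) and 29.7 (muscle), and Cyp2j6 had 75.1, 14.9 and 4.42. Each step was called for both genes (limma adjusted p of 6.48e-06 or less, in tests that called 76.4%, 72.9% and 72.8% of all genes). Cyp2j9 had 5.13 in liver and 5.35 in adipose tissue, a log2 difference of -0.07 (standard error 0.234, limma adjusted p = 0.797), and 0.974 in muscle, below both (limma adjusted p of 4.48e-07 or less). Of the 23 genes in this fit, 22 were higher in liver than in adipose tissue and 23 than in muscle. The filter admitted 18 of them through liver alone, which fixes that direction, so the counts carry no weight of their own. The fold between liver and adipose tissue was 1205 for Cyp2d26 and 5018 for Cyp3a11 by the means at 5 months, and at least 695-fold for Cyp2c67, whose adipose mean was under the value of 3 reads.

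Outside liver, traces of the liver cytochromes stood in particular libraries. For 18 genes with a mean of at least 10 in liver at 5 months, Cyp2d22 and Cyp2j6 aside, a group formed after the values were seen, the summed value in muscle at 5 months was 1.23, 2.90, 40.9 and 2.30. The hepatocyte markers in the same 4 libraries summed to 2.54, 41.4, 479 and 50.7, and X5S5238 was highest in both. At 20 months the muscle sums were 1.63, 0.997, 9.62, 0.882 and 0.713, with hepatocyte marker sums of 0.978, 0.465, 86.1, 6.32 and 0.143. X18S58 was highest in both. In X5S5238 the 18 genes amounted to 8.53% of the hepatocyte marker sum and in X18S58 to 11.2%. In the livers themselves the share was 4.31% to 8.32% at 5 months and 8.94% to 14.4% at 20 months. The other 3 muscle libraries at 5 months had 48.5%, 7.02% and 4.53%, and the other 4 at 20 months 167%, 214%, 13.95% and 500.0%. The 4 highest of these stood at marker sums of 0.143 to 2.54. In these 4 libraries all Cyp2c genes together had 0.845 (X5S4299), 1.30 (X18S56), 0.864 (X18S57) and 0.499 (X18S60). Cyp2c44, which is among the 18 genes, had 0.279 to 0.845 in muscle at 5 months and 0.441 to 1.30 at 20 months. The high shares therefore rest largely on a gene present in every muscle library.

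In adipose tissue the same sums were 3.41, 7.39, 4.35 and 11.8 at 5 months and 27.9, 3.23, 19.4, 3.23 and 4.24 at 20 months. The hepatocyte marker sums were 27.1, 23.3, 81.2 and 69.0, and 294, 5.18, 175, 6.21 and 19.9. X18F36 and X18F38 were highest in both measures, with 9.47% and 11.1% of the marker sum, and the other 7 libraries had 5.35% to 62.4%. Cyp3a11 in adipose tissue followed them, with 4.92 and 6.13 in these 2 libraries and 0 to 1.22 in the others (log2 change with age 0.61, limma adjusted p = 0.464). Other genes weighed on the sums elsewhere. Cyp2d9 gave 5.36 of the 7.39 in X5F5001, 6.20 of the 11.8 in X5F5239 and 8.11 of the 27.9 in X18F36. Cyp2c genes gave 3.11 of the 3.23 in X18F37. The part of liver RNA in the muscle and adipose sums was not tested.

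Cyp2d9 and Cyp2j13 in adipose tissue had another pattern. Cyp2d9 had 1.595, 5.36, 0.465 and 6.199 at 5 months and 8.11, 0, 0.981, 0.937 and 0.239 at 20 months (log2 change -0.77, limma adjusted p = 0.402). Cyp2j13, which had 0 reads in all 9 livers, had 0.830, 1.66, 0 and 2.01 at 5 months and 0.796, 0, 0, 0.141 and 0.0896 at 20 months. The 5 kidney markers summed to 0.925, 3.44, 0.199 and 3.75 at 5 months and 1.89, 0.0389, 0.0297, 0.375 and 0.179 at 20 months. At 5 months all 3 measures were highest in X5F5001 and X5F5239, and at 20 months in X18F36. Kap, among the kidney markers, was 0 in every adipose library. The 5 epididymis markers summed to 0 to 3.14 at 5 months and 0 to 6.16 at 20 months in adipose tissue. The part of kidney or epididymis RNA in these values was not tested.

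**Figure D5:**
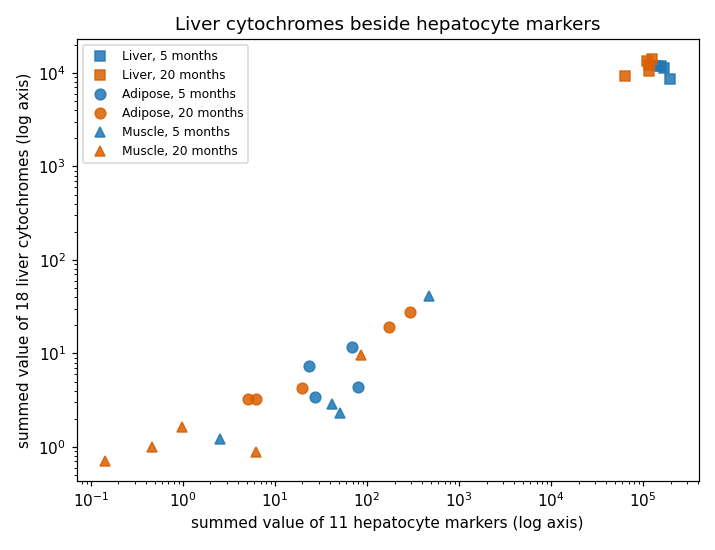
Each point is a library; the x axis is the summed scaled value of 11 hepatocyte markers and the y axis that of 18 liver cytochromes (both log axes). Muscle library X5S5238 (479 and 40.9) and adipose library X18F36 (294 and 27.9) are the highest of their tissues, and the livers lie more than 2 orders of magnitude above them on both axes.

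Cyp2c70 and Cyp2c44 in adipose tissue were highest in a library with few hepatocyte transcripts. Cyp2c70 had 0, 0, 1 and 3 reads at 5 months and 21, 37, 19, 44 and 35 reads at 20 months, scaled values of 0 to 0.0873 and of 0.565 to 1.44. The highest belonged to X18F37, whose hepatocyte markers summed to 5.18, the lowest of the tissue. Cyp2c44, an epoxygenase also known outside hepatocytes, had 0.185 to 0.291 at 5 months and 0.492 to 1.596 at 20 months, again highest in X18F37. Neither reached the filter, and neither gene's ages overlapped, as for 17.4% of all genes tested in adipose tissue. With no filter on low values both were called as higher (log2 changes of 0.89 and 0.65, limma adjusted p = 0.0194 and 0.0498). They were singled out of the 32 members left untested there, and Cyp2c44 rested on 5 to 46 reads. The share of all genes called without the filter is not given here, so these calls have no background beside them. In muscle Cyp2c44 was present in all 9 libraries at 0.279 to 1.30, from 4 to 20 reads, while Cyp2c70 had 0 reads in 8 of them.

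The partners of these enzymes were counted over lists of genes. Por, the electron donor of all microsomal P450 enzymes, was lower at 20 months in each tissue. In liver its means were 1205 ± 481 (SD, n = 4) and 505 ± 202 (SD, n = 5), which differed by -1.29 on the log2 scale (adjusted p = 0.0306 by limma). In adipose tissue it fell from 293 ± 23.9 to 207 ± 28.3 (-0.50, limma adjusted p = 0.0318), and in muscle from 63.6 ± 11.6 to 38.5 ± 3.47 (-0.70, limma adjusted p = 0.00472). Of the 6 redox partner genes tested in liver, 1 was higher and 1 lower, and Cyb5r3, a cytochrome b5 reductase, was the higher one (log2 change 0.66, limma adjusted p = 0.0486). In adipose tissue 2 of 6 were lower, Por and Cyb5a, and in muscle 1 of 6. Of the fits that left out 1 liver, 5 of 9 kept the call of Por and 3 of 9 that of Cyb5r3. The call of Por held in 3 of 9 such fits in adipose tissue and in 9 of 9 in muscle.

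Of 11 genes of heme synthesis and breakdown, 2 were higher in liver, Ppox and Alad (log2 changes of 0.58 and 0.57, limma adjusted p = 0.0179 and 0.0392), both of which act in heme synthesis. With 1 liver left out, 7 of 9 fits called Ppox and 3 of 9 called Alad. In adipose tissue 1 was higher, and in muscle 2 were higher and 1 lower, the last being the heme oxygenase Hmox1 (-1.96, limma adjusted p = 0.0174). The list medians were 0.15 (liver), 0.38 (adipose tissue) and 0.22 (muscle), and those of all genes 0.00106, 0.00718 and 0.0168.

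Of 26 nuclear receptors and hepatocyte transcription factors tested in liver, 2 were higher and 2 lower, with a list median of -0.03. The xenobiotic receptor Nr1i2 (PXR) had means of 86.0 and 80.3 (-0.10, limma adjusted p = 0.658), and Nr1i3 (CAR) 133 and 199 (0.60, limma adjusted p = 0.0528). Hnf4a had 976 and 644 (-0.55, limma adjusted p = 0.0675). The called ones included Rora, lower (-0.67, limma adjusted p = 0.0154), Dbp, higher (2.81, limma adjusted p = 0.0332), and Ahr, higher (0.37, limma adjusted p = 0.0349). Of 9 fits with 1 liver left out, 9 called Rora, 3 called Dbp and 2 called Ahr. In adipose tissue 1 of 20 was lower, and in muscle 2 of 17 were higher and 1 lower.

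Ephx2 had means of 2705 and 1754 in liver (-0.69, limma adjusted p = 0.0677), 449 and 322 in adipose tissue (-0.51, limma adjusted p = 0.118) and 55.0 and 55.4 in muscle (0.09, limma adjusted p = 0.793). Of the epoxide hydrolases and other eicosanoid enzymes, 1 of 11 was higher and 1 lower in liver, 2 of 13 higher and 1 lower in adipose tissue, and 2 of 13 lower in muscle. Ephx1, the microsomal epoxide hydrolase, rose in adipose tissue from 44.3 to 96.7 (1.14, limma adjusted p = 0.00921).

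Of the other cytochromes of the Cyp1, Cyp2 and Cyp3 families, 4 of 12 tested in liver were higher and 1 lower (19.8% of all genes were called), with a median of 0.43. Cyp2b9 was higher (5.25, limma adjusted p = 0.00496), Cyp2b10 lower (-3.38, limma adjusted p = 0.00822) and Cyp2a22 higher (2.90, limma adjusted p = 0.00866). In adipose tissue 4 of 7 were lower (19.1% of all genes called), led by Cyp2e1 (-3.38, limma adjusted p = 0.00948), and in muscle 2 of 5 were lower (19.3% called), Cyp2e1 (-3.04, limma adjusted p = 0.00145) and Cyp2f2 (-1.22, limma adjusted p = 0.00711). The difference between these shares was not tested. Of 37 conjugating (phase II) enzymes tested in liver, 8 were higher and 2 lower with a median of 0.33, of 20 in adipose tissue 1 was higher and 2 lower, and of 13 in muscle 2 were higher and 3 lower.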

How the data were processed

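RNA-seq was analysed in liver, omental adipose tissue and skeletal muscle of MlxKO mice, 4 per tissue at 5 and 5 at 20 months. The sample labels and the paper's text give 20 months for the older mice, and that age is used here. Their sample names carry 18, and the paper's supplement lists mouse numbers with the same last digits at 18 months. Poly-A RNA was sequenced on a NovaSeq, and the authors processed the reads in CLC Genomics Workbench, with GRCm38.p6 and mm10 named in the submitters' notes. The table was headed as CPM, but what the authors deposited is a signal in which each library's reads were multiplied by its own constant. The design had assumed CPM, and its tests were kept. All values (100%) came out as whole reads within 0.02. Exon lengths came from GENCODE, and Cyp2c44 was matched by gene ID. The fit was limma 3.58.1 (R 4.3.3) with a variance trend on log2(value + 1), for genes with at least 1 in at least 4 libraries, with Benjamini-Hochberg adjustment over all genes. Fold changes on this scale understate those of low genes. Exact two-sided permutation tests used all 126 splits of 9 libraries. The settings varied were the pseudocount (0.1, 0.5), the filter (none, or a mean of at least 5), the scaling (median-of-ratios factors, or leaving the 20 most abundant genes out), the test (edgeR 4.0.16 or DESeq2 1.42.0, both on whole reads), each library left out, and all 27 libraries in 1 fit or the mouse as a block.

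Members and lists were chosen with earlier results of these data known. Named with full values are the called members and, in liver, the 2 most abundant per subfamily, and for lists the fixed partner genes and up to 3 with the smallest adjusted p. The mouse numbers at 5 months pair the tissues, since the same animals gave all 3. The correlation of their deviations was -0.02 to 0.29 (mean 0.14). The older libraries were left unpaired in the fit with the mouse as a block. Among 48 pairs of libraries of a group 0 were identical. No source says that samples of a group share a litter or batch. The fits were tested first on simulated reads with 4-fold changes. Within tissues they recovered 183 of 197 changed genes in liver (7 false calls), 184 of 200 in adipose tissue (11) and 194 of 198 in muscle (8). For the age change between tissues they did less well. Liver against adipose tissue gave 136 of 198 with 26 false calls, and liver against muscle 136 of 198 with 20. Calls between tissues are therefore less certain.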

Additional observations from a re-analysis of the deposited data

Results flagged for a closer look

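Of 108 sets of values (a gene in a tissue and age, for genes that reached a scaled value of 1 in the tissue), 23, or 21.3%, held a library far from the rest. Several muscle genes, Cyp2c29 and Cyp2c37 among them, reached 1 in X5S5238 alone. Their sets were thus admitted through the library that was then flagged, and many values rest on few reads. The 1 in 20 that chance would give is therefore no yardstick for this share. The 23 gathered in few libraries and are not separate events. In muscle library X5S5238, 8 genes stood high: Cyp2c29 (2.58), Cyp2c37 (1.64), Cyp2c50 (2.19), Cyp2d10 (4.15), Cyp2d9 (6.73), Cyp2d26 (3.68), Cyp3a11 (11.04) and Cyp3a25 (3.44). The other 3 libraries of the group did not exceed 0.627 for any of them. In muscle library X18S58, 9 genes stood high: Cyp2c29 (0.289), Cyp2c37 (0.506), Cyp2c50 (0.940), Cyp2d10 (0.723), Cyp2d9 (0.362), Cyp2d26 (1.08), Cyp2j5 (0.217), Cyp3a11 (3.04) and Cyp3a25 (0.506). Both libraries held the highest hepatocyte marker sums of their group.

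In liver X18L74, Cyp2c44 (100.3) and Cyp2d26 (730.1) were low and Cyp2d12 (52.2) was high. In adipose library X18F36, Cyp2d9 (8.11) and Cyp2j13 (0.796) were high, and in muscle library X18S60, Cyp2j6 (7.27) was high. The age change of Cyp2d22 differed between liver and adipose tissue by 1.32 on the log2 scale (limma adjusted p = 0.00305 in the test of the difference).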

How the results depend on the processing

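In liver, 3 members were called. The count was 1 with no filter on low values, 6 without the 20 most abundant genes in the scaling (which shifted the median of all genes by 0.16), 5 by edgeR, 8 by DESeq2 and 8 with all 27 libraries in 1 fit. It ranged from 1 to 6 over the fits that left out 1 liver. It was 1 without X18L17, X18L18, X5L4299 or X5L5001 and 6 without X18L16 or X5L5239. Cyp2c67 was called in each of these fits. DESeq2 called Cyp2c37, Cyp2c50, Cyp2c55, Cyp2c67, Cyp2d40 and Cyp3a59 as higher and Cyp2d9 and Cyp3a13 as lower, of which edgeR called Cyp2c55, Cyp2c67, Cyp2d40, Cyp3a13 and Cyp3a59. In adipose tissue, 1 member was called, and 3 with no filter, without the 20 most abundant genes or with all 27 libraries (1 in each fit with a library left out). In muscle, 1 was called, and 0 with all 27 libraries (1 to 2 with a library left out, 2 without X5S5239). For liver against muscle, the 4 calls became 2 with a pseudocount of 0.1, 0 by edgeR and 2 by DESeq2, and 3 to 8 with a library left out (8 without X5L5239). For adipose tissue against muscle, 0 became 1 with pseudocounts of 0.1 and 0.5 and by edgeR, 2 without the 20 most abundant genes, 5 by DESeq2, and 0 to 1 with a library left out. For levels at 5 months in adipose tissue against muscle, 3 became 5 with a pseudocount of 0.1 and with no filter, 6 by edgeR and 8 by DESeq2. The cause of these shifts was not tested.

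With the mouse as a replicate block, the calls between tissues went from 4 to 6 for liver against adipose tissue, from 4 to 5 for liver against muscle, and stayed at 0 for adipose tissue against muscle. The signs that turned belonged to changes near 0. Without the 20 most abundant genes, the liver change of Cyp2c39 was 0.023 and that of Nr1i2 0.077. By DESeq2 the muscle change of Ephx2 was -0.0096. With a library left out, the liver changes ranged from -0.077 to 0.17 for Cyp2d22, -0.26 to 0.073 for Cyp2c39, -0.021 to 0.34 for Cyp2c44 and -0.17 to 0.0043 for Nr1i2. Those of Cyp2j6 ranged from -0.031 to 0.14 in adipose tissue and -0.080 to 0.18 in muscle, and those of Ephx2 in muscle from -0.17 to 0.30. Depth limits the members outside liver, where most values rest on few reads, and shared sequence limits the Cyp2c genes.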
